A study of Mus musculus with 6 samples.

Results

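Gli3 binding sites (GBS) were described at 9 transcription factor genes that pattern the dorsal telencephalon, *Emx1*, *Emx2*, *Pax6*, *Lhx2*, *Nr2f1*, *Nr2f2*, *Sp8*, *Neurog1* and *Neurog2*. A GBS was assigned to a gene when its midpoint lay inside the gene body or within 100 kb of the gene-level transcription start site (TSS) of the GENCODE M21 annotation on mm10. This rule uses positions only, and it assigned 9 of the 4114 deposited GBS to 6 of the 9 genes. Chromatin immunoprecipitation followed by sequencing (ChIP-seq), which recovers the DNA fragments bound by a protein, was done with a Gli3 antibody on cerebral cortices of wild-type (wt) mouse embryos at embryonic day 15 (E15), with 3 Gli3 libraries and 3 libraries of input DNA from the same tissue. The cortices were used whole, so progenitors, neurons and other cells of the tissue were pooled. There was no group of another genotype, age or treatment. The deposited list joins the 3 replicates. It locates and names each GBS but gives no height, score or count. No value per replicate, no error between embryos and no test could therefore be had, and the depth is unknown. Where one was computed, the same count is given over all protein-coding genes, over the 4099 GBS that lie on chromosomes, or over the 12841 pairs of a protein-coding gene and a GBS that the rule forms.

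Gli3 is a zinc finger transcription factor of the Sonic hedgehog (Shh) pathway. Without Shh it is processed into a repressor, the form that prevails in the cortex, and the dorsal telencephalon does not form normally without it. The 9 genes encode factors that act there as well. *Emx1*, *Emx2*, *Pax6* and *Lhx2* give progenitors their dorsal identity, *Nr2f1*, *Nr2f2* and *Sp8* act with *Emx2* and *Pax6* in dividing the cortical sheet into areas, and *Neurog1* and *Neurog2* start the differentiation of excitatory neurons.

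The DNA word that GLI proteins recognize has the core GACCACCCA. None of the 9 GBS contained it exactly on either strand, so the words closest to it, which differ at 1 base, are shown here first. Each is printed 5′ to 3′ on the strand on which it reads like the core, with 20 bases on either side and the word itself in capitals. A substitution names the base of the core, its position counted from 1 at the 5′ end of the core, and the base found.
Emx1, chr6:85204640-85204688, plus strand, C3A: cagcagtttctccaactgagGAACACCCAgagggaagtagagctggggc
Emx1, chr6:85207296-85207344, minus strand, A5C: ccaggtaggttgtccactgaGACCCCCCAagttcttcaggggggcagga
Emx1, chr6:85264186-85264234, plus strand, G1C: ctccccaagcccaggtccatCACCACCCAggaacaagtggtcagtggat
Pax6, chr2:105716829-105716877, minus strand, A2C: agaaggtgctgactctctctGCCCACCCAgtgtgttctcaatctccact
Lhx2, chr2:38424420-38424468, plus strand, A5T: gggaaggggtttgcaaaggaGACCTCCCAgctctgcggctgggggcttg
Nr2f1, chr13:78163181-78163229, minus strand, G1A: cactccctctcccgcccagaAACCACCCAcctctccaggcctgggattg
Nr2f1, chr13:78203677-78203725, minus strand, A2C: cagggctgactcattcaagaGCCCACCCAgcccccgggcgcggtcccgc
Sequences here and below are those of the GRCm38 assembly as held by RefSeq. The 7 words lay in 6 of the 9 GBS, which is 66.7%, and 2653 of the 4099 GBS on chromosomes, or 64.7%, held a word of this kind. The *Pax6* word and the *Nr2f1* word upstream of the TSS carried the same substitution. The intronic GBS of *Lhx2*, the GBS of *Neurog1* and the GBS of *Neurog2* held no word within 1 mismatch of the core.

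At the level of genes, 66.7% of the 9 (6 genes) had at least 1 GBS, against a background of 37.4% of the 21938 protein-coding genes. The exact 95% binomial interval (Clopper-Pearson) of the share was 29.9% to 92.5%. It covers counting over 9 genes only and not their choice. *Emx1*, *Lhx2* and *Nr2f1* had 2 GBS each, and *Pax6*, *Neurog1* and *Neurog2* had 1 each. Among all protein-coding genes, 13.3% had at least 2. *Emx2*, *Nr2f2* and *Sp8* had none. Only *Nr2f1* had its gene-level TSS inside a GBS, 1 gene of 9 beside 6.22% of protein-coding genes.

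**Figure D1:**
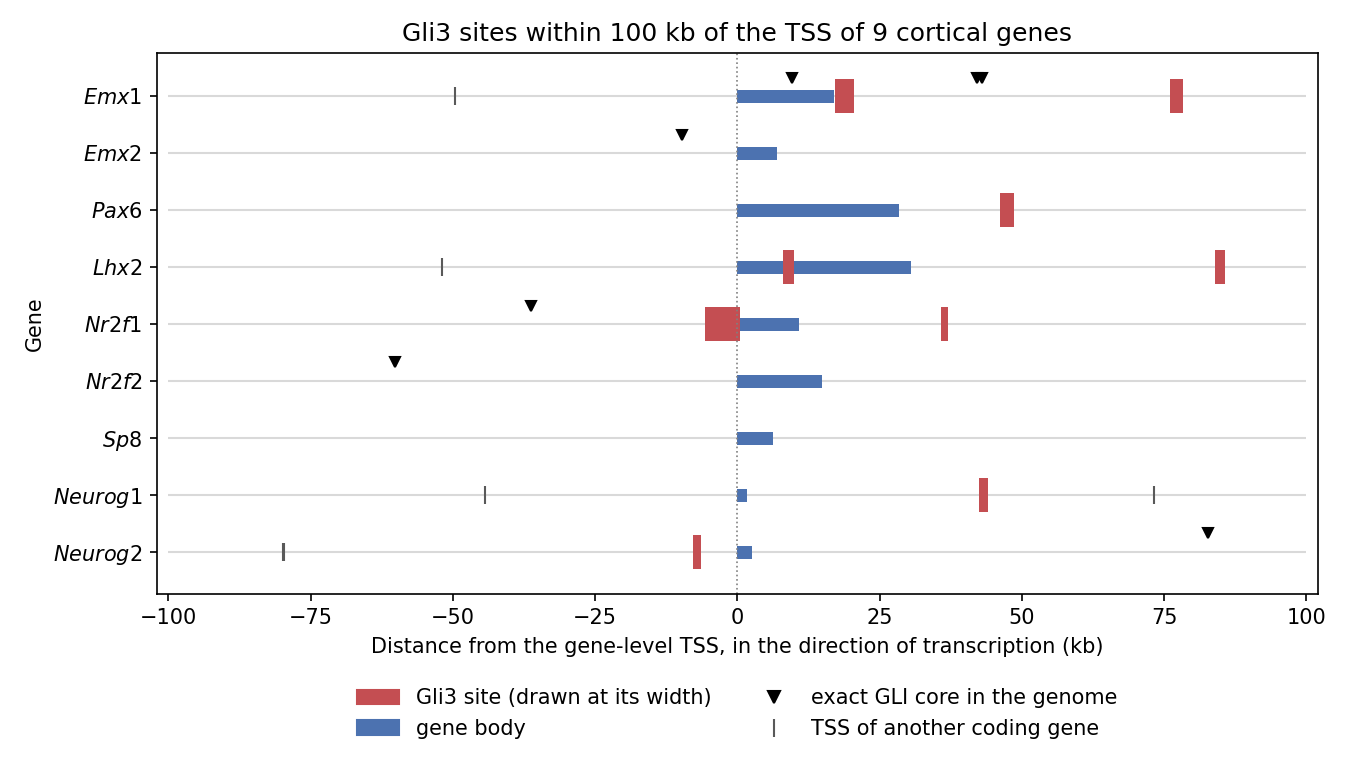
Position of the Gli3 sites at the 9 genes, with the distance from the gene-level TSS in the direction of transcription on the horizontal axis (kb) and 1 row per gene. Red blocks are sites drawn at their width, blue bars are gene bodies, black triangles are exact GLI cores of the genome sequence and grey ticks are the TSSs of other protein-coding genes, and none of the 7 triangles falls on a red block.

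Of the 9 GBS, 7 had their midpoint downstream of the TSS and 2, at *Nr2f1* and *Neurog2*, had it upstream, and 53.7% of all gene and GBS pairs were downstream. For 3 the distance was at most 10 kb (18.1% of all pairs), and for 7, at all 6 genes, within 50 kb (51.9%). The *Lhx2* gene was the only one whose body held a midpoint, beside 19.2% of all pairs. The outermost GBS inside the 100 kb limit lay 84.9 kb from the TSS, at *Lhx2*, and the nearest ones beyond it were 113 kb from *Emx2* and 116 kb from *Emx1*. The TSS of the assigned gene was the nearest protein-coding TSS for 7 of the 9 GBS and for 27.1% of all pairs, and the exceptions were the farther GBS of *Emx1* and the GBS of *Neurog1*. The share over all pairs also depends on how densely genes lie, since a GBS in a gene-rich region is paired with many genes.

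**Figure D2:**
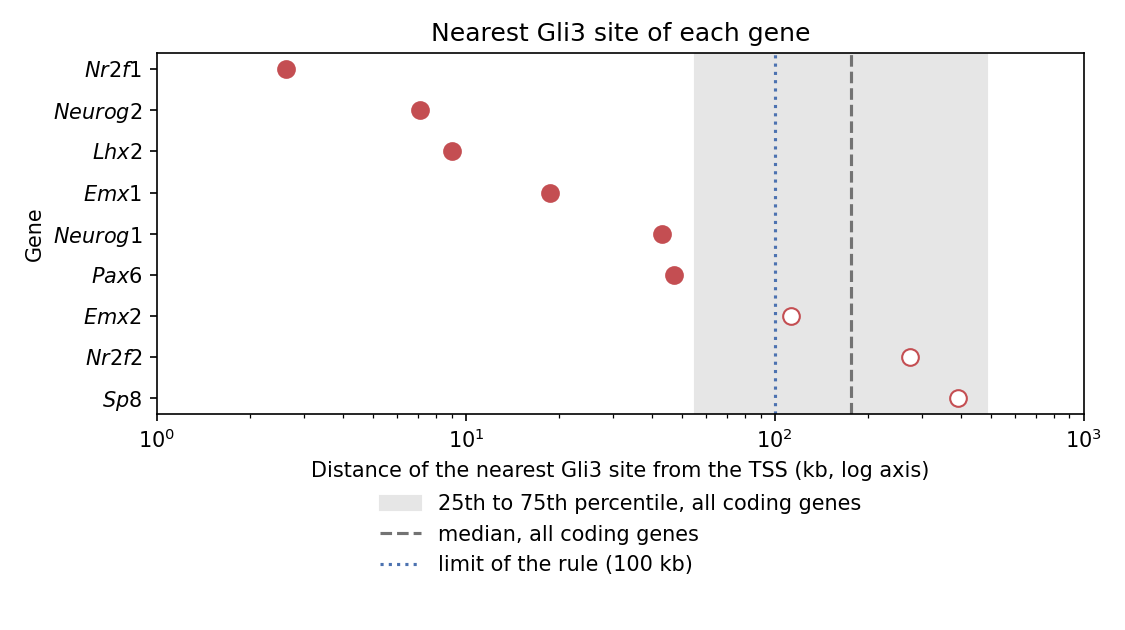
Distance from each gene-level TSS to the midpoint of the nearest Gli3 site (kb, log axis), with genes in order of distance. Filled points are genes with a site by the rule and open points are genes without one, the grey band spans the 25th to 75th percentile of all protein-coding genes and the dashed line is their median (177 kb), and 6 of the 9 points lie left of the band.

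The distance to the nearest GBS ordered the genes from *Nr2f1* (2.62 kb) through *Neurog2* (7.13 kb), *Lhx2* (9.02 kb), *Emx1* (18.8 kb), *Neurog1* (43.2 kb) and *Pax6* (47.4 kb) to *Emx2* (113 kb), *Nr2f2* (274 kb) and *Sp8* (392 kb). The median over the 9 genes was 43.2 kb. Over all 21938 protein-coding genes it was 177 kb, with a 25th percentile of 55.4 kb. Of all protein-coding genes, 7.18% had a GBS as near as that of *Nr2f1*, 22.6% as near as that of *Pax6* and 70.3% as near as that of *Sp8*. The distances carry no error, because the replicates were joined before deposition.

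*Emx1* (ENSMUSG00000033726.8, plus strand, chr6:85187438-85204462) encodes a homeodomain factor found in nearly all progenitors of the dorsal telencephalon. Its nearer GBS was 3253 bp wide, at chr6:85204605-85207857, and began 143 bp past the annotated end of the gene, with its midpoint in no annotated gene. It was wider than most, since 81.0% of all GBS were as narrow or narrower. The farther GBS, chr6:85263538-85265805, was 2268 bp wide and had its midpoint 77.2 kb downstream of the *Emx1* TSS. It lay over an exon of *Sfxn5*, a neighbour on the minus strand that encodes a mitochondrial carrier, with its midpoint 262 bp from the start of a noncoding *Sfxn5* transcript and 68.8 kb from the gene-level *Sfxn5* TSS. Beyond the limit of 100 kb, a further pair of GBS lay 116 and 133 kb downstream of *Emx1*, both nearer to the *Sfxn5* TSS.

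*Pax6* (ENSMUSG00000027168.21, plus strand, chr2:105668900-105697364), a paired-box factor of radial glia that is needed for rostral and lateral areas, had a GBS of 2455 bp at chr2:105715033-105717487. The GBS lay past the 3′ end of the gene, with its midpoint in an intron of *Elp4*. *Elp4* encodes a subunit of the Elongator complex and holds distal regulatory elements of *Pax6*. The gap from the end of *Pax6* to the GBS was 17669 bp. The nearest functional element in the RefSeq annotation was the enhancer region in intron 7 of *Pax6*, 23.8 kb away. None of the 9 GBS overlapped a RefSeq functional element, and 78 of the 4099 GBS on chromosomes did (1.90%).

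*Lhx2* (ENSMUSG00000000247.11, plus strand, chr2:38339281-38369733) encodes a LIM-homeodomain factor that sets cortical against hem identity. Its first GBS, chr2:38347306-38349286, was 1981 bp wide and had its midpoint in an *Lhx2* intron, 9.02 kb downstream of the TSS. The same stretch held the first exon of the antisense gene *Gm27197*, whose start was 20 bp from the midpoint. The second GBS, chr2:38423285-38425008, was 1724 bp wide, began 53552 bp past the end of *Lhx2*, and had its midpoint 145 bp from the start of the long intergenic noncoding RNA gene *Gm13589*. The only other protein-coding TSS within 100 kb of the *Lhx2* TSS was that of *Dennd1a*, on the upstream side.

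*Nr2f1* (ENSMUSG00000069171.14, minus strand, chr13:78188973-78199757) encodes the nuclear receptor COUP-TFI, which is high in the caudal cortex. It had the widest GBS of the 9 genes, 6143 bp at chr13:78199308-78205450, and 98.5% of all GBS were as narrow or narrower. This GBS covered the first 450 bases of *Nr2f1* and ran upstream over the antisense gene *A830082K12Rik*. It held 7 annotated transcript starts, 1 of *Nr2f1* and 6 of *A830082K12Rik*, and its midpoint was 5 bp from one of the latter. Of its 32-base words, taken every 10 bases, 4.74% occurred more than once in the assembly, the highest share among the 9 GBS, of which 7 had none. The median share over all GBS on chromosomes was 0.532%. The other GBS of *Nr2f1* was the narrowest of the 9, at 1095 bp, and only 16.5% of all GBS were as narrow or narrower. It lay at chr13:78162812-78163906, 36.4 kb downstream, with its midpoint in introns of *Fam172a* and of the antisense gene *Gm38604*, and 394 of its bases fell in annotated untranslated exon sequence. The 200 bases upstream of the *Nr2f1* TSS are printed because this was the only start site of the 9 inside a GBS. They are on the minus strand, chr13:78199758-78199957, with CpG dinucleotides in capitals.
Nr2f1, upstream of the TSS: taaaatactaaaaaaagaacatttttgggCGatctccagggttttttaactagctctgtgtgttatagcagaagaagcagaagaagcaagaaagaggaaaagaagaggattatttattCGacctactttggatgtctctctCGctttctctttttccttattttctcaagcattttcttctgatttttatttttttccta
The stretch directly before the start was rich in A and T and held few CpGs. Over the 1 kb centred on the same TSS, however, the ratio of observed to expected CpGs was 0.925, the highest of the 9 genes.

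The proneural genes had 1 GBS each. *Neurog1* (ENSMUSG00000048904.5, minus strand, chr13:56250478-56252163) had its GBS of 1485 bp at chr13:56208173-56209657, 43.2 kb downstream, with its midpoint outside annotated genes. This GBS was nearer, at 30030 bp, to the TSS of *Tifab*. *Neurog2* (ENSMUSG00000027967.8, plus strand, chr3:127633135-127635631) had its GBS of 1419 bp at chr3:127625298-127626716, 7.13 kb upstream, with its midpoint likewise outside annotated genes. The nearest RefSeq functional element to the *Neurog2* GBS, the VISTA enhancer mm1549, was 78.5 kb from it.

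In 2 of the 3 pairs of related genes, the GBS were found at only 1 of the paralogs. With a GBS at 37.4% of all protein-coding genes, many pairs of genes would differ in this way. The share over other gene pairs was not computed. *Emx1* had 2 and *Emx2* (ENSMUSG00000043969.4, plus strand, chr19:59458372-59465357), its relative with high expression in caudal and medial progenitors, had none. The GBS nearest to *Emx2*, chr19:59344402-59346634, was 113 kb upstream and closer to the TSS of *Pdzd8*. With a limit of 200 kb, *Emx2* had this GBS, and only *Nr2f1* and *Nr2f2* then differed in this way. *Nr2f1* had 2 and *Nr2f2* (ENSMUSG00000030551.14, minus strand, chr7:70351944-70366735), which encodes COUP-TFII, had none, with the nearest GBS 274 kb upstream at chr7:70640381-70641627. *Neurog1* and *Neurog2* had 1 each, on opposite sides of the gene. *Sp8* (ENSMUSG00000048562.7, plus strand, chr12:118846329-118852576), a zinc finger factor of the rostromedial cortex, had no GBS, and the nearest, 392 kb downstream at chr12:119237649-119238905, was closer to the TSS of *Itgb8*. Because the list carries no scores, binding at these 3 genes below the authors' threshold cannot be told apart from no binding.

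A GBS was counted as lying in a promoter when its midpoint was at most 2 kb from the start of an annotated transcript of any kind. This was the case for 4 of the 9 GBS, or 44.4% (exact 95% interval 13.7% to 78.8%), and for 45.6% of the GBS on chromosomes. The interval treats the GBS as independent, although *Emx1*, *Lhx2* and *Nr2f1* had 2 each, and does not cover the choice of genes. At all 4 the transcript was noncoding, namely that of *Sfxn5*, *Gm27197*, *Gm13589* and *A830082K12Rik*. Of all GBS on chromosomes, 37.8% were at starts of protein-coding transcripts and 7.83% at starts of noncoding transcripts only. The *Nr2f1* GBS also reached the start of the coding *Nr2f1* transcript, but with a midpoint 2.62 kb from it. The share of GBS at starts of noncoding transcripts only was computed after the positions were seen.

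The median width of the 9 GBS was 1981 bp (range 1095 to 6143 bp) and that of all GBS on chromosomes was 1995 bp. Median GC content was 54.0% and 51.4%, and the median ratio of observed to expected CpGs was 0.380 and 0.304. Within the 9, the CpG ratio was 0.780 and 0.560 at *Nr2f1*, 0.744 at *Neurog2*, 0.574 at the intronic GBS of *Lhx2*, 0.380 at *Neurog1*, 0.271 at the distal GBS of *Lhx2*, 0.203 and 0.195 at *Emx1* and 0.148 at *Pax6*. A ratio of at least 0.5 was found at 4 of the 9 GBS, and at 31.4% of all GBS on chromosomes. GC content was lowest at *Pax6* (41.9%) and highest at the downstream GBS of *Nr2f1* (61.3%).

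**Figure D3:**
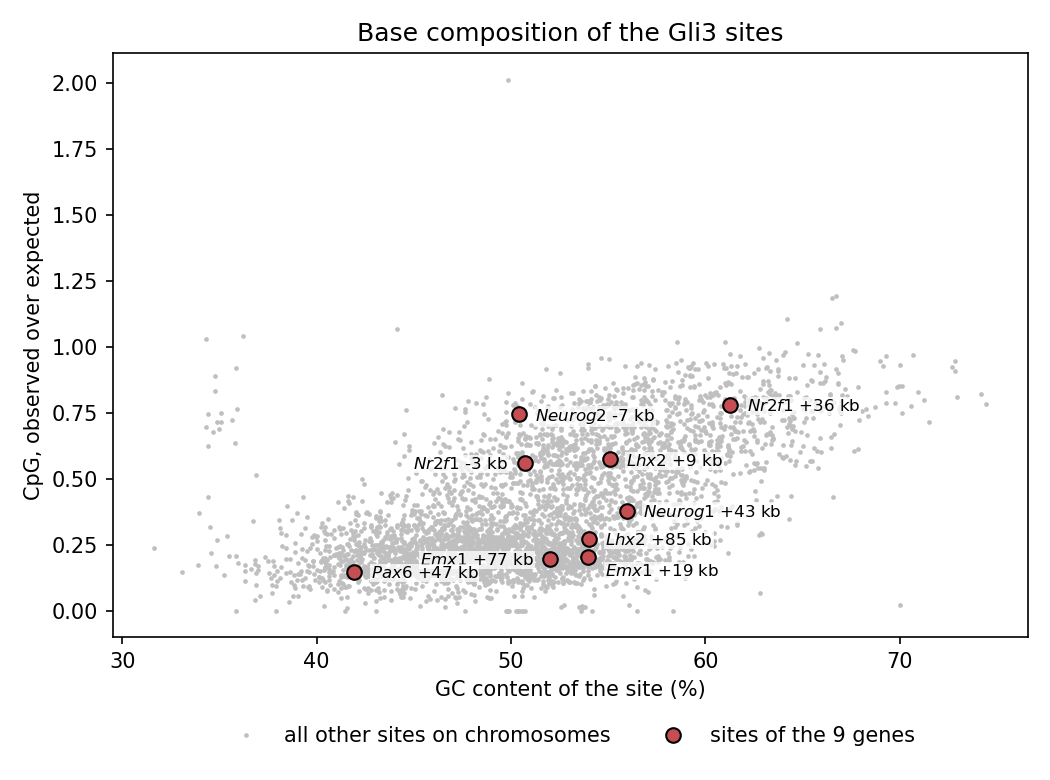
GC content (%, horizontal axis) against the ratio of observed to expected CpG dinucleotides (vertical axis) for each site, with the sites of the 9 genes in red, labelled with the distance from the TSS in kb, and all other sites on chromosomes in grey. The red points run from the CpG-poor *Pax6* site (0.148) to the CpG-rich *Nr2f1* site 36.4 kb downstream (0.780).

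The central 120 bases of 4 GBS show this range. They are printed on the plus strand with CpGs in capitals, from the most CpG-rich GBS at each of 3 genes and from *Pax6*.
Lhx2 intron, chr2:38348236-38348355: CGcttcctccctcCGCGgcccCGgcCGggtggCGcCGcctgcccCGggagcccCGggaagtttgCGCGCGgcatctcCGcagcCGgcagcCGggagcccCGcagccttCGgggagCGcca
Nr2f1 downstream, chr13:78163299-78163418: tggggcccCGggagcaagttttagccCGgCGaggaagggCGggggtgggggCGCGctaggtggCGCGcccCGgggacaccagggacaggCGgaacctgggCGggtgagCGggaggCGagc
Neurog2 upstream, chr3:127625947-127626066: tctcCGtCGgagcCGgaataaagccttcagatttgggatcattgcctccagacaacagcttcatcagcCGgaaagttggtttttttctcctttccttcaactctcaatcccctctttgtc
Pax6 downstream, chr2:105716200-105716319: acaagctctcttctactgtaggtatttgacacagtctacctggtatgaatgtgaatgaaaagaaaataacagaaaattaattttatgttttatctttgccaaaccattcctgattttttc
The *Lhx2* and *Nr2f1* centres were dense in CpGs and the *Pax6* centre held none. At *Neurog2* the GC content of the central 400 bases was 41.8%, and the bin with the highest GC content, 71%, was centred 500 bases to the left of the centre.

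**Figure D4:**
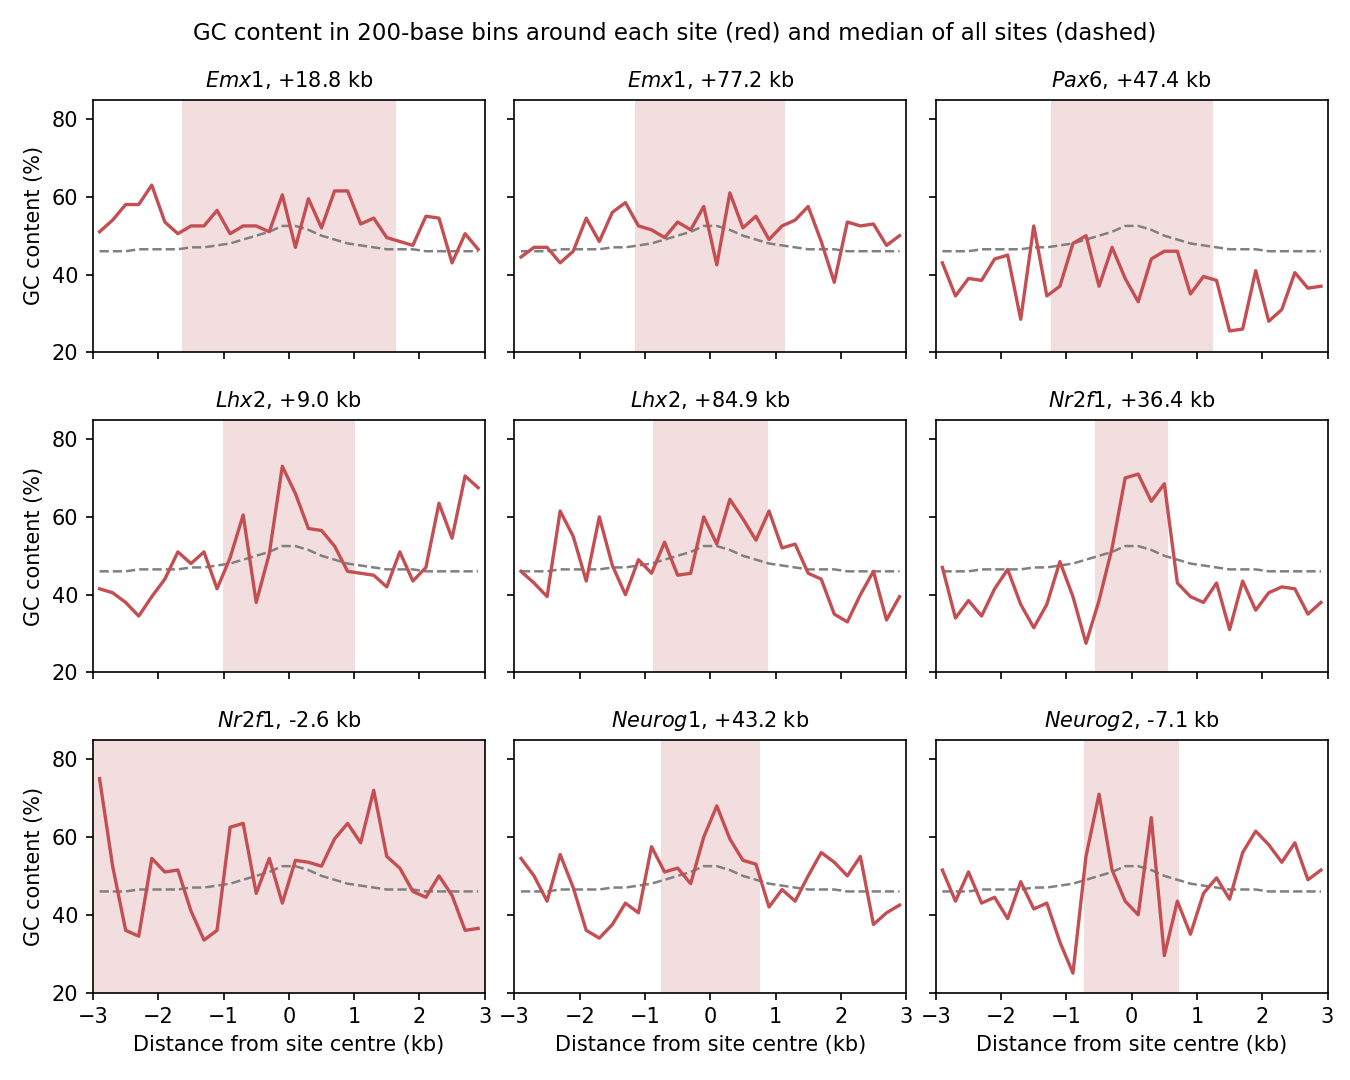
GC content (%) in bins of 200 bases against the distance from the centre of each site (kb, in the direction of the chromosome), 1 panel per site. The red line is the site, the pink shading its extent (cut at the edge of the panel for the widest site) and the dashed line the median of all sites, which peaks at 52.5%, while the *Lhx2* intron and the *Nr2f1* downstream site reach 73% and 71% in a bin centred 100 bases from the centre.

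Each GBS was set beside 2 flanks of its own length that began 1 length away on either side. GC content was higher in the GBS than in both flanks at 8 of the 9, the exception being the intronic GBS of *Lhx2*, whose right flank had 62.4% against 55.1%. At *Pax6* the difference from the left flank was small, with 41.9% against 41.8%. Of 4077 GBS with both flanks free of gaps, 69.9% exceeded both. The CpG ratio exceeded that of both flanks at 6 of the 9 GBS and at 63.1% of all. The largest contrast was at the downstream GBS of *Nr2f1*, with a CpG ratio of 0.780 between flanks of 0.137 and 0.0696.

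Exact GLI cores lay within 100 kb of the start site at 5 of the 9 genes and at 76.2% of all protein-coding genes. The windows held 7 cores, 3 at *Emx1* and 1 each at *Emx2*, *Nr2f1*, *Nr2f2* and *Neurog2*, while those of *Pax6*, *Lhx2*, *Sp8* and *Neurog1* held 0. None of the 7 lay inside a GBS, and in the whole genome 591 of 18532 exact cores did (3.19%). By the approximate limit of 3 divided by the count, 0 of 7 allows a share of up to 42.9%. This limit is rougher than an exact interval and treats the cores as independent, although 3 of them lay at *Emx1*. With 7 cores, a share as low as that of the genome could not be told apart from 0. None of the 9 GBS held a core, which by the same approximation allows a share of up to 33.3%, and 12.2% of the GBS on chromosomes held one. Among protein-coding genes, 6.16% had a GBS with a core by the same rule, and 0 of the 9 genes did. The shorter word GACCACCC was likewise in 0 of the 9 and in 20.4% of all GBS. At *Emx1* the nearest exact core was 9.59 kb downstream of the TSS, inside the gene, and at *Emx2* it was 9.79 kb upstream.

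Words of the families to which the 9 factors belong were counted in the central 300 bases, so that width did not set the count, on both strands and with overlaps kept. The E-box CAGATG, bound by proneural factors such as Neurog2, was in 3 of the 9 centres (20.3% of all GBS), at *Neurog1*, at the upstream GBS of *Nr2f1* and at the distal GBS of *Lhx2*. The E-box CAGCTG (18.3% of all), the homeodomain word TAATTA (7.47%) and the nuclear receptor word AAGGTCA (4.29%) were in 0 of the 9 centres. The GC box GGGCGGGG of SP factors was in 3 of the 9 centres (9.10% of all). Over the whole GBS the GC box was in 5 of 9 (33.8% of all) and in 3 of the 18 flanks. CAGATG was in 7 of 9 (72.8% of all) and in 17 flanks, and CAGCTG in 3 (68.6%) and in 10 flanks. TAATTA was in 3 of 9 (38.2% of all) and in 9 flanks, and AAGGTCA in 1 (29.3%) and in 7 flanks. The nearer GBS of *Emx1*, 3253 bp wide, had 8 copies of CAGATG, with 0 in its central 300 bases. Per kb this was 2.46, beside 2.02 at *Neurog1*, and these copies have no background. The 3 central GC boxes are printed with the box in capitals and 26 bases on either side.
Emx1 nearer site, chr6:85206157-85206216, plus strand: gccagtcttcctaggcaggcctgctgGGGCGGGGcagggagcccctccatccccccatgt
Nr2f1 downstream, chr13:78163309-78163368, plus strand: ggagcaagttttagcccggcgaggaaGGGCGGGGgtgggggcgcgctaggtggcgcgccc
Neurog1, chr13:56208747-56208806, minus strand: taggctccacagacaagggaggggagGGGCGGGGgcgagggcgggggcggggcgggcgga
Such words are frequent in GC-rich sequence, and the part of base composition in these counts was not tested.

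The 9 GBS shared no long sequence. In the 36 pairs of GBS the longest exact word in common had 10 to 15 bases, with a median of 12, and no pair shared 16 bases. These lengths were not computed for pairs of other GBS, so they have no background. The GBS of *Neurog1* and *Neurog2* shared at most 14, and the pair at *Emx1*, the pair at *Lhx2* and the pair at *Nr2f1* shared 12, 12 and 13.

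For the start sites themselves, 8 of the 9 genes had a CpG ratio of at least 0.5 over the 1 kb around the gene-level TSS, the exception being *Nr2f2* (0.258). Only the outermost annotated start of each gene was measured, and *Nr2f2* has 6 distinct transcript starts. Of the 8 genes, only *Nr2f1* had a GBS over the TSS. Among the 21938 protein-coding genes, 11750 had such a TSS and 10.5% of these were covered by a GBS.

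**Figure D5:**
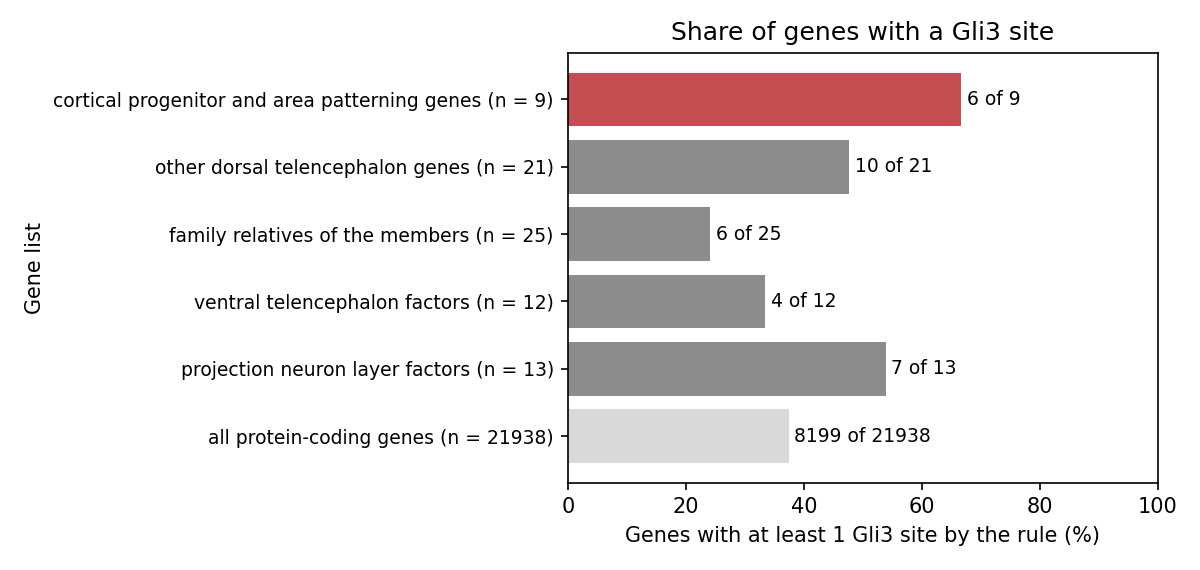
Share of genes with at least 1 Gli3 site by the rule (%, horizontal axis, from 0) in each gene list, with the 9 genes in red, 4 other lists in dark grey and all protein-coding genes in light grey. The shares run from 24% for the family relatives to 66.7% for the 9 genes, beside 37.4% of all protein-coding genes.

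Other genes of the same tissue and family were counted by the same rule. Of 21 other genes of the dorsal telencephalon, 10 had a GBS (47.6%), among them *Insm1* with 4, *Bcl11a* with 3 and *Eomes* with 2, and 4 had one over the TSS. Of 25 relatives of the 9 genes in the Lhx, Sp, Neurog, Nr2f and Pax families, 6 had a GBS (24%), led by *Sp5* with 4 and *Sp2* with 2, and *Lhx3*, *Neurog3*, *Pax1* and *Pax5* had 1 each. Of 12 factors of the ventral telencephalon, 4 had a GBS (33.3%), led by *Olig2* with 3 and *Olig1* and *Gsx2* with 2 each, and the windows of the *Olig* genes overlap. Of 13 projection neuron layer factors, 7 had a GBS (53.8%), led by *Fezf2*, *Cux2* and *Pou3f3* with 3 each. A GBS with an exact core was found at 2 genes of each of the first 3 lists and at 0 of the layer factors, as at 0 of the 9 genes. The lists differ in length and share genes, and no test between them was made.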

How the data were processed

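Gli3 ChIP and input libraries (3 each) were made from E15 wild-type cortices, and the study describes the 3 as biological replicates. The deposited values are positions on mm10. Per the file header, the authors used 85 bases from each paired end, filtered repeats, mapped with bowtie2 and joined the replicates by irreproducible discovery rate (IDR), from which the optimal set was deposited. The submitters' processing notes also name SAMtools and MACS2. The peak calling and IDR thresholds are not given in the sources used here, and they set the number and width of the sites. Depth per library is unknown. The list used here has fewer sites than the study's text states, and what the difference holds, at genes with no site as well, is not known.

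Starts were made 1-based, and 15 sites on unplaced scaffolds were left out of backgrounds. Genes came from GENCODE M21 and sequence from GRCm38.p6, where 202 of 216 introns of the 9 genes (93.5%) began with GT and ended with AG. Distances were measured from the gene-level TSS to the site midpoint. Motifs were exact words on either strand. The 9 genes and all lists were chosen with earlier results of these data known. Genes named were these 9, the nearest coding gene of each site, noncoding genes at a site, and the 3 genes with the most sites in each other list, ties included. A gene that falls under this rule is not reported here. The distance, the site position, the TSS set, the motif match, the promoter definition and the site filters were varied. Motif search and site assignment were tested on simulated data. Intervals cover counting error only. The tools were samtools 1.23.1, pysam 0.24.0, numba 0.67.0, scipy 1.17.1, numpy 2.4.6 and python 3.11.15.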

Additional observations from a re-analysis of the deposited data

How the results depend on the processing

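No paired analysis was possible because the replicates were joined into 1 list and no result came from a test between groups. For the same reason no replicate could be left out. The number of sites assigned to the 9 genes was 9, rose to 15 within 200 kb of the TSS and was 4 among sites of at least the median width, and 3 genes then had a site in place of 6. A cut at the median width removes many of all sites by its definition. The share of all protein-coding genes with a site under this cut was not computed. Within 50 kb, or with only the sites whose nearest protein-coding TSS was that of the gene, 7 sites were assigned, to 6 and 5 genes. Over all protein-coding genes, the share with a site was 25.2% within 50 kb and 53.6% within 200 kb, and 6 and 7 of the 9 genes had one. The gene gained within 200 kb was *Emx2*. With 1 mismatch allowed, 6 of the 9 sites held a GLI word in place of 0. Counted as promoters, the 4 sites fell to 1 with the 2 kb upstream of a start only and to 0 with starts of protein-coding transcripts only. The other alternatives moved no count by more than 1.5 times, and the median width stayed at 1981 bp under all 3 that were run. Without scores, a stricter peak threshold could not be tried. The width filter does not replace one, because no value in the list links width to peak strength. Unknown depth limits what the absence of a site at *Emx2*, *Nr2f2* and *Sp8* can show.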
